A study of Mus musculus with 2 samples.

Results

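The genes described here encode the interferon-inducible subunits of the proteasome and the machinery that loads its peptide products onto MHC class I molecules. The set holds 10 genes, chosen by symbol and all present among the 27998 genes listed in both count tables. It comprises Psmb8, Psmb9 and Psmb10, the catalytic subunits of the immunoproteasome, Psme1 and Psme2, which encode the PA28 activator, the peptide transporter genes Tap1 and Tap2, the peptide editors Tapbp (tapasin) and Tapbpl, and the aminopeptidase gene Erap1. The study sorted tumor mononuclear phagocytes (TMPs) positive for the engulfment receptor MerTk and the Fc receptor CD64 from B16 melanomas, a transplantable mouse melanoma grown in mice of the same strain, and profiled single cells on the 10X Chromium platform. The mice were C57Bl/6 and either Fcmr+/+ or Fcmr-/-, that is, with or without the gene for Fcmr, a putative receptor for soluble IgM. The deletion was present in all host cells and not in phagocytes alone. Each genotype was represented by 1 library, and the number of mice behind a library is not given in the sources used here, so no test between genotypes was possible and the spread between mice is unknown. Intervals given below are exact 95% intervals that cover counting error only.

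Cells degrade cytosolic and nuclear proteins in the proteasome, a barrel whose standard catalytic subunits are encoded by Psmb5, Psmb6 and Psmb7. Interferons, above all interferon-gamma, induce a replacement set encoded by Psmb8, Psmb9 and Psmb10 that is built into new barrels and shifts which peptides are cut, while PA28 caps the barrel and speeds peptide release. The TAP transporter moves peptides into the endoplasmic reticulum, Erap1 trims them, and tapasin and its relative Tapbpl help class I molecules to exchange weakly for tightly bound peptides before export to the surface, where CD8+ T cells read them. Macrophages express these genes at rest and raise them on exposure to interferon.

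After the filters on cells, 6352 Fcmr+/+ and 7999 Fcmr-/- TMPs remained, with 128408544 and 124630621 unique molecular identifiers (UMIs, counts of captured mRNA molecules). Median depth differed, at 17973.5 UMIs per Fcmr+/+ cell and 12911 per Fcmr-/- cell, and therefore expression was given as counts per 1000000 UMIs (CPM) and shares of cells were computed after each cell was thinned to 5000 UMIs, which left out 0 cells. Fcmr itself had 7 UMIs in the Fcmr+/+ library and 6 in the Fcmr-/- library, too few to check the genotype labels. The libraries shared 73 cell barcodes. Markers of the sorted cells were abundant in both libraries, with Mertk at 62.8 and 48.7 CPM and Fcgr1, the gene for CD64, at 250.4 and 394.3 CPM in Fcmr+/+ and Fcmr-/- TMPs, respectively.

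Several of these genes are neighbors in the genome. On chromosome 17 of GRCm38, within the MHC class II region, Psmb9 (chr17:34181987-34187764, minus strand), Tap1 (chr17:34187553-34197225, plus strand), Psmb8 (chr17:34197721-34201454, plus strand) and Tap2 (chr17:34203527-34216321, plus strand) follow one another, and Tapbp (chr17:33915899-33929292, plus strand) lies 274234 bases from Tap2. Psme1 (chr14:55578123-55581529, plus strand) and Psme2 (chr14:55587441-55591113, minus strand) are separated by 5911 bases. Psmb10 (chr8:105935735-105938444, minus strand), Tapbpl (chr6:125223933-125231860, minus strand) and Erap1 (chr13:74639568-74693201, plus strand) stand apart from the others. Psmb9 and Tap1 are transcribed in opposite directions from one shared promoter, and in the RefSeq table for GRCm38.p6 their transcripts start 225 bases apart. That stretch, chr17:34187331-34187555 on the plus strand, is shown because, in these RefSeq models, both genes are transcribed away from it. The GENCODE gene spans given above include longer models, and the span of Psmb9 covers the whole stretch and reaches into Tap1.

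Psmb9-Tap1: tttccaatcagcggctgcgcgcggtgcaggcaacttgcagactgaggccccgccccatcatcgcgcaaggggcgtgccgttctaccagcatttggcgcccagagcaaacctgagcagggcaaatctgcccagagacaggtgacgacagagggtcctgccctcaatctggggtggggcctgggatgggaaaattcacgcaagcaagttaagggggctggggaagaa

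Windows of 300 bases around the RefSeq starts, 250 upstream and the rest downstream, were available for 8 of the 10 genes and were searched for the letters of 2 interferon response motifs. The interferon-stimulated response element, searched on both strands as a pair of GAAA blocks with any 2 bases between them, matched in Psme1 and Erap1 and in 3.44% of all 32851 promoter windows in the table. The gamma-activated site, searched as TTCNNNGAA, which reads the same on both strands, matched in Psmb8 and in 8.30% of all windows. The bases around these matches are printed with the motif in capitals, for Psmb8 at chr17:34198088-34198117, for Psme1 at chr14:55578493-55578522 and for Erap1 at chr13:74639839-74639868, all on the plus strand. The motif begins 97 bases before the start of Psmb8 and 4 bases before that of Erap1. In Psme1 it begins at base 10 of the transcript, counted from 1 at the start. The starts meant here are those of RefSeq, at chr17:34198195 for Psmb8, chr14:55578494 for Psme1 and chr13:74639853 for Erap1. All 3 starts, and these motifs, lie inside the longer GENCODE gene spans given above. These are matches of letters and not measurements of binding.

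Psmb8: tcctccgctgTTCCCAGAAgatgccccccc
Psme1: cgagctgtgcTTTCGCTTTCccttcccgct
Erap1: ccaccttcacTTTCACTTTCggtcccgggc

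To compare the genotypes, UMIs were summed over all cells of a library. Ratios are Fcmr-/- over Fcmr+/+ after 1 CPM was added to each level, which slightly lowers the ratios of rare transcripts. All 10 genes had a higher level in Fcmr-/- than in Fcmr+/+ TMPs, where 50.5% of the 8701 genes tested (those with at least 5 CPM in either library) were higher, and 9 of the 10 were at least 1.5-fold higher, against 2.4% of all genes tested. None was 1.5-fold lower, a fold reached by 1.69% of all genes tested. The median log2 ratio of the 10 genes was 0.82, while that of all genes tested was 0.00. Together the 10 genes contributed 1025 CPM in Fcmr+/+ and 1815 CPM in Fcmr-/- TMPs.

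The 3 immunoproteasome subunits were each more than 1.5-fold higher. Psmb8, which encodes the chymotrypsin-like subunit LMP7, had 236.5 CPM (233.9 to 239.2) in Fcmr+/+ and 417.7 CPM (414.1 to 421.3) in Fcmr-/- TMPs, a 1.76-fold ratio. Psmb9, which encodes LMP2, had 75.5 CPM (74.1 to 77.1) and 160.9 CPM (158.7 to 163.1), a 2.11-fold ratio. Psmb10, the gene for MECL-1, had 100.8 CPM (99.1 to 102.5) and 179.9 CPM (177.6 to 182.3), a 1.78-fold ratio. Thus, in neither library were these subunits rare, and for each the counting intervals of the 2 libraries were apart. At such counts the intervals are narrow, and those of the standard subunit Psmb5 were also apart (224.9 to 230.1 and 245.2 to 250.7 CPM). The share of all genes with intervals apart over all cells was not computed. The PA28 genes differed by similar factors. Psme1 had 195.0 CPM (192.6 to 197.4) in Fcmr+/+ and 318.5 CPM (315.4 to 321.7) in Fcmr-/- TMPs, and Psme2 had 188.3 CPM (186.0 to 190.7) and 340.6 CPM (337.3 to 343.8), ratios of 1.63-fold and 1.80-fold. PA28 assembles from both products, and the genes also had nearly equal UMI counts in each library. Psme2b, a copy of Psme2 elsewhere in the genome that may share reads with it, had 9.17 and 14.7 CPM, so a small part of the Psme2 signal is uncertain.

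In the peptide transporter, Tap1 had 53.6 CPM (52.4 to 54.9) in Fcmr+/+ and 102.6 CPM (100.9 to 104.4) in Fcmr-/- TMPs, a 1.90-fold ratio. Tap2, whose product pairs with that of Tap1, had fewer UMIs, 27.2 CPM (26.3 to 28.2) against 44.5 CPM (43.3 to 45.7), a 1.61-fold ratio. Both transporter genes were thus higher, with the larger ratio in Tap1. Tapbp, the gene for the tapasin bridge between TAP and class I molecules, had 121.9 CPM (120.0 to 123.9) and 207.2 CPM (204.7 to 209.8), a 1.69-fold ratio. Tapbpl, the least abundant of the set, had 8.30 CPM (7.81 to 8.82) and 18.7 CPM (18.0 to 19.5), a 2.12-fold ratio and the largest of the 10 with that of Psmb9. Erap1, which trims the amino ends of peptides, had 17.2 CPM (16.5 to 18.0) and 24.0 CPM (23.2 to 24.9). Its 1.37-fold ratio was the smallest of the set and the only one below 1.5-fold. Apart from Psme2, each of these genes overlaps another annotated gene, among them Psmb9 with Tap1 over 212 bases, Psme1 with Emc9, Tapbp with Zbtb22, Tapbpl with Vamp1 and Erap1 with Cast, and it was not tested how reads in the overlaps were assigned.

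**Figure D1:**
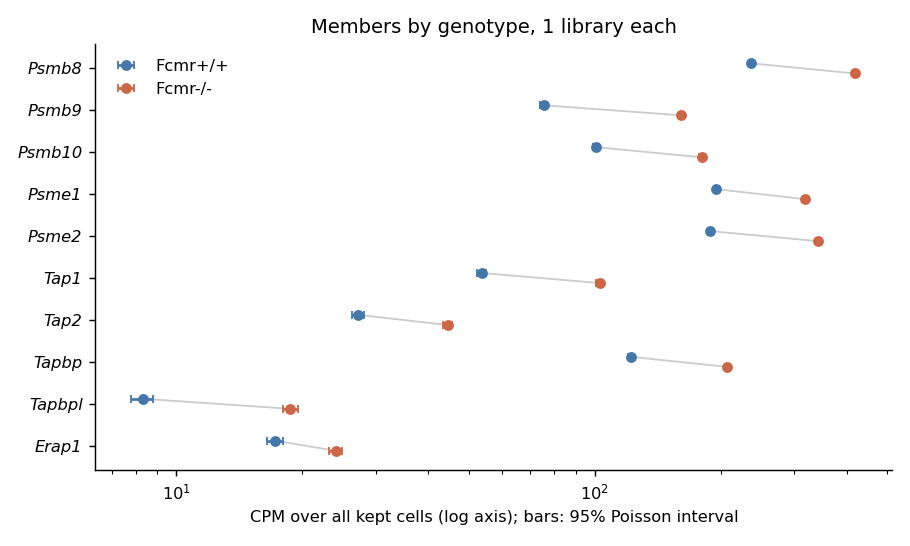
Expression of the 10 genes, as CPM over all kept cells on a log axis, in the Fcmr+/+ library (blue) and the Fcmr-/- library (orange), with bars for exact 95% Poisson intervals and grey lines joining the values of a gene. Every gene lies further right in Fcmr-/- TMPs, from Tapbpl at 8.30 and 18.7 CPM to Psmb8 at 236.5 and 417.7 CPM.

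At a common depth of 5000 UMIs per cell, the share of cells with at least 1 UMI was higher in Fcmr-/- TMPs for all 10 genes, against 50.3% of all genes tested. Psmb8 was detected in 65.1% of Fcmr+/+ and 77.4% of Fcmr-/- cells, Psme1 in 60.9% and 71.6%, Psme2 in 56.4% and 71.4%, and Tapbp in 44.8% and 60.1%. For Psmb10 the shares were 37.2% and 51.4%, for Psmb9 29.8% and 46.6%, and for Tap1 23.7% and 35.5%. The rarer transcripts remained in a minority of cells of either genotype, with Tap2 in 12.9% and 19.1%, Erap1 in 7.75% and 10.2%, and Tapbpl in 3.92% and 8.14%. Without thinning, when Fcmr+/+ cells were deeper, Psmb8 was detected in 92.7% and 91.4% of cells and Psme1 in 91.3% and 89.8%, and the other 8 genes still had the higher share in Fcmr-/- TMPs, against 5.91% of all genes tested. The sort held no cell type known to lack these transcripts, so the share given by free RNA was not measured.

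Within single cells, the summed UMIs of the 10 genes per 5000 UMIs had a median of 5 in Fcmr+/+ and 7 in Fcmr-/- TMPs. The spread was wider in Fcmr-/- cells, with 10th and 90th percentiles of 3 and 17 against 2 and 9 in Fcmr+/+ cells, so the distributions overlapped in their lower part and parted in their upper part. A sum above the 90th percentile of Fcmr+/+ cells was found in 8.66% of Fcmr+/+ and 36.0% of Fcmr-/- cells. At least 5 of the 10 genes were detected together in 23.9% of Fcmr+/+ and 49.97% of Fcmr-/- cells, and at least 8 in 0.614% and 5.69%. All 10 were detected in 0 Fcmr+/+ cells and in 8 Fcmr-/- cells, and 1.76% and 0.863% of cells had none.

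Other proteasome genes had close levels in the libraries. Of 14 genes of the constitutive core particle, 0 were 1.5-fold higher or lower, and their median log2 ratio was 0.08. However, 12 of the 14 were higher by some amount, against 50.5% of all genes tested, up to 1.21-fold for Psma4. The 3 standard catalytic subunits were close between the genotypes, with Psmb5 at 227.5 and 247.9 CPM, Psmb6 at 488.4 and 492.3 CPM and Psmb7 at 160.6 and 159.1 CPM in Fcmr+/+ and Fcmr-/- TMPs. The 18 genes of the regulatory cap had a median of 0.03, with 12 higher and none past 1.5-fold in either direction. Among 8 other activators and assembly factors 7 were higher and the median was 0.13. The largest ratio among them belonged to Pomp, the chaperone that promotes maturation of new core particles, at 329.7 and 402.3 CPM. Pomp was thus 1.22-fold higher, less than any of the immunoproteasome subunits.

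Downstream partners of peptide loading were also higher, but all except the class I gene H2-K1 by smaller factors than any of the 10 genes. All 6 genes of this list had a higher level in Fcmr-/- TMPs, with a median log2 ratio of 0.29. The class I heavy chain gene H2-K1 had the largest ratio, at 977.2 and 1581 CPM (1.62-fold), followed by the light chain gene B2m at 2502 and 3402 CPM (1.36-fold), while H2-D1 had 1513 and 1840 CPM (1.22-fold). The chaperone genes Calr, Pdia3 and Canx, which fold class I chains before and during loading, had ratios of 1.23-fold, 1.17-fold and 1.05-fold. Of 6 non-classical class I genes, 5 were at least 1.5-fold higher and their median log2 ratio was 0.77, led by H2-Q7 at 50.5 and 134.8 CPM and H2-T23, the gene for Qa-1, at 97.7 and 224.0 CPM. Class I genes are close copies of one another and reads may be split among them, so single values in this family are uncertain. Of 6 other peptidases of antigen processing, only Lap3, an interferon-inducible leucine aminopeptidase, passed 1.5-fold, with 49.0 and 86.3 CPM, and the median was 0.14.

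Among 15 regulators of the pathway, 4 were at least 1.5-fold higher and none was 1.5-fold lower. Among the higher ones, Nlrc5, the transactivator of class I genes and of several genes of the peptide loading pathway, had 9.61 and 19.3 CPM (1.91-fold), and Stat2 and the feedback inhibitor Socs1 had ratios of 1.78-fold and 1.76-fold. Irf1, which acts on the Psmb9-Tap1 promoter, differed less, at 49.1 and 59.3 CPM (1.203-fold). The interferon-gamma receptor genes Ifngr1 and Ifngr2 had ratios of 0.85-fold and 1.03-fold.

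To describe the replacement of standard by inducible catalytic subunits, UMIs of each inducible subunit were set against those of the subunit whose place it takes. Each UMI stands for 1 captured transcript, so the shares describe transcripts and not assembled proteasomes. Psmb8 made up 51.0% (50.6 to 51.4) of Psmb8 and Psmb5 UMIs in Fcmr+/+ and 62.8% (62.4 to 63.1) in Fcmr-/- TMPs. Psmb9 made up 13.4% (13.1 to 13.6) and 24.6% (24.3 to 24.9) of Psmb9 and Psmb6 UMIs, and Psmb10 made up 38.6% (38.0 to 39.1) and 53.1% (52.6 to 53.5) of Psmb10 and Psmb7 UMIs. In all 3 positions the inducible share was higher in Fcmr-/- TMPs. Transcripts of the standard subunit prevailed in both libraries only at the Psmb9 position. Over all 6 catalytic subunits, the inducible share was 32.0% (31.8 to 32.2) in Fcmr+/+ and 45.8% (45.5 to 46.0) in Fcmr-/- TMPs, 13.7 percentage points apart.

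To ask whether the difference was seen across macrophage states, cells of both libraries were clustered jointly with the 10 genes left out, which gave 10 clusters. Cluster 1 was led by Iigp1, Serpina3g and Cxcl9 and held 5 type II interferon-high markers among its top 10 genes, but 2291 of its cells were Fcmr-/- and 85 were Fcmr+/+, so it was described and not compared. Of the other clusters, cluster 4 (Cxcl3, Areg and Ppbp) was inflammatory-like, cluster 5 (Cenpf, Nusap1 and Prc1) dividing-like, cluster 6 (Hbb-bs, Adm and Rhov) hypoxic-like and led by a hemoglobin gene, and cluster 9 (Rsad2, Cmpk2 and Ifit3) type I interferon-high-like. Clusters 2 (Ccl17, Il1r2 and Ifitm1), 3 (Tfrc, Cnrip1 and Gas6), 7 (Acp5, Cyp4f18 and Apoe), 8 (Mfge8, Plpp3 and Wfs1) and 10 (Adm, Pdgfa and Rassf8) held too few markers of a fixed list to be named. Interferon genes that differed between the genotypes took part in the clustering, and hence cluster sizes are not compared.

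The median log2 ratio of the 10 genes was above 0 in 9 of 9 compared clusters, but its size varied widely. The median of all genes tested within a cluster lay between -0.01 (cluster 4) and 0.10 (cluster 6) and was itself above 0 in 8 of the 9. The median of the 10 genes was largest in dividing-like cluster 5, at 0.91. There 9 of the 10 genes were at least 1.5-fold higher, against 2.92% of all genes in that cluster. Their summed levels were 994.3 CPM in Fcmr+/+ and 1889 CPM in Fcmr-/- cells. Type I interferon-high-like cluster 9 followed with a median of 0.69, 7 genes at least 1.5-fold higher, against 7.99% of all genes, and summed levels of 1612 and 2487 CPM. The standard subunits Psmb5 and Psmb6 were also higher there with intervals apart, at log2 ratios of 0.28 and 0.32. In clusters 2, 3, 6 and 7 the medians were 0.41, 0.30, 0.38 and 0.27. Only 1, 0, 3 and 1 of the 10 genes were at least 1.5-fold higher there, against 1.94%, 1.08%, 6.59% and 6.02% of all genes. In inflammatory-like cluster 4, in cluster 8 and in cluster 10, 0, 0 and 1 genes were, against 2.26%, 4.26% and 4.995%. The medians in these 3 clusters were 0.09, 0.09 and 0.16, beside -0.01, 0.04 and 0.07 for all genes, so the genotypes were close in these states. The summed level of the type II interferon score genes, a list of 25 genes that holds none of the 10, moved with these values only in part. It was 430.3 and 1466 CPM in cluster 5 and 521.7 and 963.0 CPM in cluster 2. In cluster 4 it was 336.6 and 382.1 CPM and in cluster 10 it was 385.2 and 376.8 CPM. It was 340.4 and 442.3 CPM in cluster 3 and 284.2 and 420.7 CPM in cluster 7. In clusters 6 and 8 it differed by like factors, at 579.9 and 717.8 CPM and at 218.9 and 272.2 CPM, beside medians of 0.38 and 0.09. In cluster 9, in contrast, it was 3179 and 3227 CPM, although 10 of 10 genes were higher there, against 55.2% of all genes. Which score genes made up this sum in cluster 9 was not examined, so near-equal sums may hold different genes. In the top bin of this score, described below, Cxcl10 supplied 54.3% of the score in Fcmr+/+ and 25.6% in Fcmr-/- cells. The 85 Fcmr+/+ cells of cluster 1 already had 2010 CPM of the 10 genes, more than the Fcmr+/+ cells of any compared cluster, against 2534 CPM in its Fcmr-/- cells.

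By gene, 5 of the 10 (Psmb8, Psmb9, Psme2, Tap1 and Tapbp) were higher in Fcmr-/- cells in every compared cluster, a pattern held by 10.5% of all genes tested. Tapbp was the most uniform, with counting intervals apart in 9 of 9 clusters and log2 ratios from 0.23 to 0.81. Psme2 had intervals apart in 8 clusters, Psmb9 in 7 and Psmb8 in 6, while Tap2 and Tapbpl had them apart in 3 and Erap1 in 2. These counts also depend on the number of UMIs of a gene, and Tap2, Tapbpl and Erap1 were the least abundant of the set. The share of all genes with intervals apart was not computed. No gene had a lower level in Fcmr-/- cells with intervals apart in any compared cluster. The lowest ratio was that of Erap1 in cluster 4, at 17.1 CPM (15.0 to 19.4) in Fcmr+/+ and 14.3 CPM (12.2 to 16.6) in Fcmr-/- cells, a log2 ratio of -0.24. The highest was that of Tapbpl in cluster 5, at 8.04 CPM (6.89 to 9.33) and 23.2 CPM (21.1 to 25.5), a log2 ratio of 1.42.

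**Figure D2:**
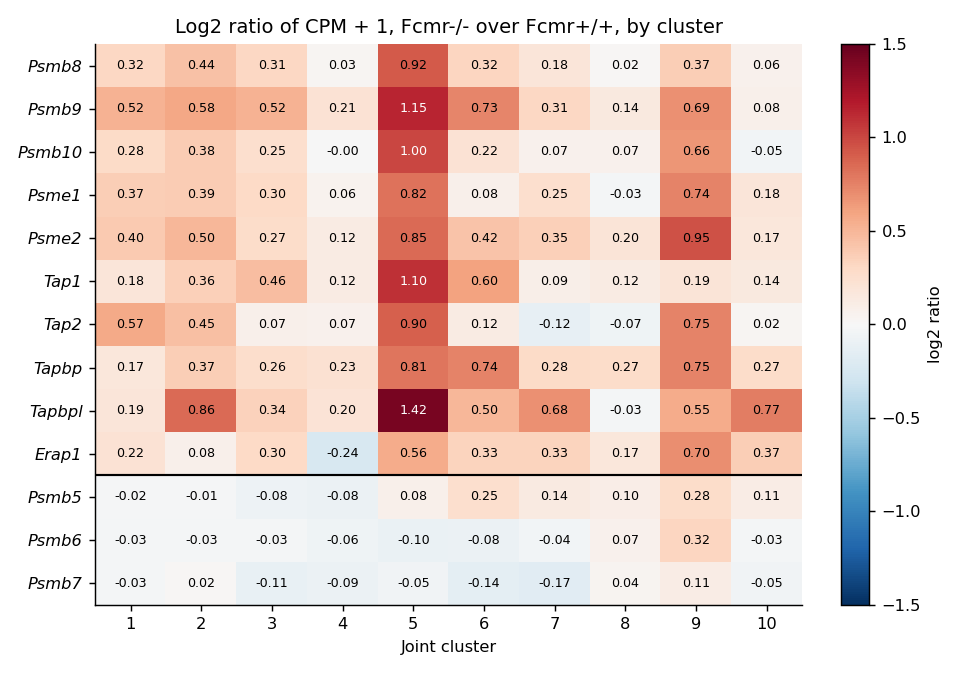
Log2 ratio of CPM + 1 in Fcmr-/- over Fcmr+/+ cells for the 10 genes (above the line) and the 3 standard catalytic subunits (below the line) in each joint cluster, where red is higher in Fcmr-/- and blue lower. Cluster 1 holds 85 Fcmr+/+ cells and was not compared. The strongest red lies in cluster 5, where Psmb9 reached 1.15 and Tap1 1.10, while Psmb5, Psmb6 and Psmb7 stay near 0 in most clusters.

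Levels also differed between states within a genotype. Tap1 had the widest span, from 30.7 CPM in cluster 8 to 174.5 CPM in cluster 9 among Fcmr+/+ cells (5.68-fold) and from 33.5 to 199.1 CPM between the same clusters among Fcmr-/- cells (5.94-fold). Its interval in cluster 9 overlapped between the genotypes (159.6 to 190.5 and 189.1 to 209.6 CPM). Psmb8 ranged from 156.4 CPM in cluster 10 to 405.0 CPM in cluster 9 in Fcmr+/+ cells and from 163.3 to 522.5 CPM in Fcmr-/- cells. Psme1 and Psme2 had the narrowest spans with Erap1 in Fcmr+/+ cells, at 1.66-fold, 1.70-fold and 1.69-fold. With each cluster of Fcmr-/- cells weighted as in the Fcmr+/+ library, the median log2 ratio of the 10 genes was 0.42 rather than 0.82. Among single genes it was 0.65 for Psmb9, 0.49 for Tap1, 0.42 for Psmb8 and 0.28 for Erap1. These weights rest on cluster sizes, which interferon genes that differed between the genotypes helped to set. The part of the difference that lies in cluster composition was thus not tested. Without the cells of cluster 1, 3 of the 10 genes were at least 1.5-fold higher, against 2.09% of all genes, and the median was 0.51.

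The inducible share of catalytic UMIs also differed between states. Among compared clusters it was highest in cluster 9, at 49.3% (47.7 to 50.8) in Fcmr+/+ and 53.3% (52.5 to 54.2) in Fcmr-/- cells, and lowest in cluster 10, at 20.2% (19.5 to 20.8) and 20.7% (19.4 to 21.98). Dividing-like cluster 5 had the largest difference, 32.2% (31.6 to 32.7) against 49.4% (48.9 to 49.97). In cluster 8 the shares were 21.98% (21.01 to 22.98) and 21.70% (21.03 to 22.38), and here as in cluster 10 the intervals overlapped. In the other 7 compared clusters the share was higher in Fcmr-/- cells with intervals apart, by 1.72 percentage points in cluster 4 to 17.3 in cluster 5. By position, Psmb9 had intervals apart in the same clusters, Psmb10 in clusters 2, 3, 5, 6 and 9, and Psmb8 only in clusters 2, 3 and 5. In cluster 6, for instance, Psmb8 made up 51.0% (49.0 to 53.0) and 52.1% (50.2 to 54.0) of Psmb8 and Psmb5 UMIs. In clusters 8 and 10 the Psmb8 share was lower in Fcmr-/- cells, with intervals that overlapped.

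**Figure D3:**
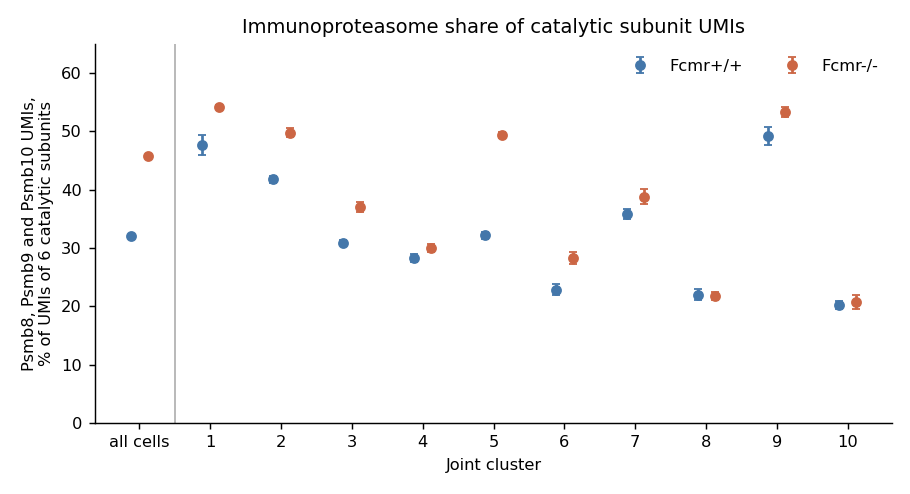
Share of Psmb8, Psmb9 and Psmb10 among UMIs of the 6 catalytic subunits, in percent, over all cells and in each joint cluster, for Fcmr+/+ (blue) and Fcmr-/- cells (orange), with bars for exact 95% Clopper-Pearson intervals. Over all cells the share is 32.0% and 45.8%, cluster 5 has the widest gap, and in clusters 8 and 10 the points nearly coincide.

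Co-expression was described by Pearson's r over thinned cells of a library, which share depth and library and are not replicates. All 45 pairs among the 10 genes had a larger r in Fcmr-/- than in Fcmr+/+ TMPs. The share of other gene pairs of like abundance with a larger r was not computed. The median r was 0.05 in Fcmr+/+ cells, with the largest at 0.14 for Psmb8 and Tap1, and 0.13 in Fcmr-/- cells, where 15 pairs were above 0.2. The largest values in Fcmr-/- cells all involved Psmb8, with Psme2 (0.33), Psmb9 (0.33), Psmb10 (0.32) and Psme1 (0.30), against 0.12, 0.13, 0.13 and 0.11 in Fcmr+/+ cells. Erap1 had the weakest links, the largest being 0.06 with Psmb8 in Fcmr-/- cells. Pairs of the 10 genes with Psmb5, Psmb6 or Psmb7 had a median r of 0.01 in both libraries. These coefficients are small throughout. The mean UMIs per thinned cell moved with them, for Psmb8 from 1.199 in Fcmr+/+ to 2.001 in Fcmr-/- cells, and the part of this in the coefficients was not tested. With cluster means subtracted, 42 of the 45 pairs still had the larger r in Fcmr-/- cells and the medians were 0.04 and 0.08.

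Joint detection gave the same picture in shares of cells. Psmb9 was detected in 32.2% of Fcmr+/+ cells with and 25.5% of those without a Psmb8 UMI, and in 51.4% and 30.04% of Fcmr-/- cells. For the divergent pair, whose shared promoter stretch is printed above, Tap1 was found in 28.8% of Fcmr+/+ cells with and 21.5% of those without a Psmb9 UMI, and in 45.1% and 27.1% of Fcmr-/- cells. Cells with a Tap1 UMI had one of Tap2 in 14.2% of Fcmr+/+ and 24.3% of Fcmr-/- cells, against 12.4% and 16.3% of cells without. Hence in each of these pairs cells with one transcript held the other more often, by a wider margin in Fcmr-/- cells. These genes were also each detected in more Fcmr-/- cells, and the part of this in the margins was not tested. Joint detection with genes outside the set was not examined.

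**Figure D4:**
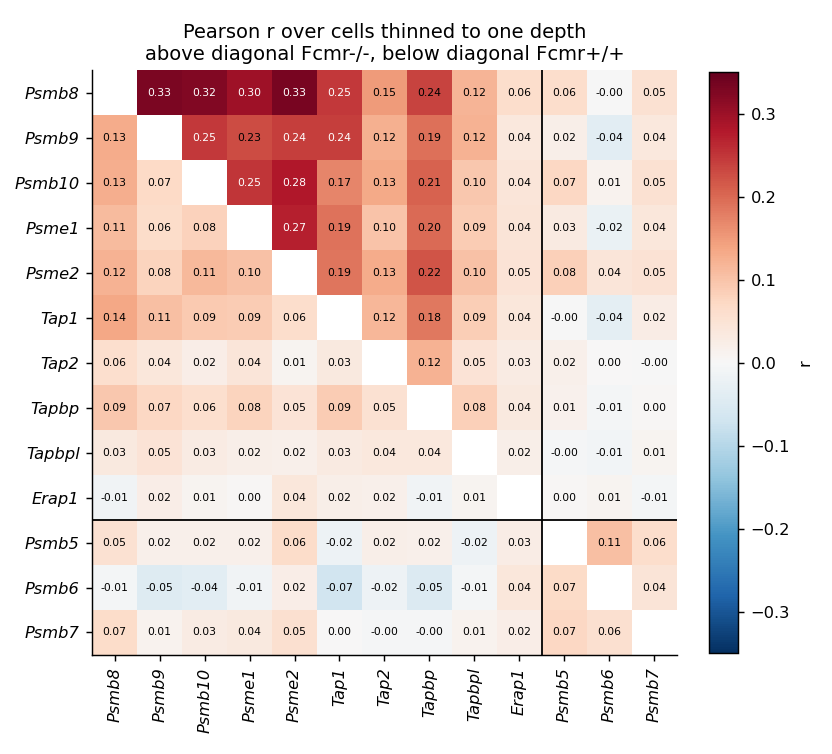
Pearson's r over cells thinned to 5000 UMIs for each pair of the 10 genes and the 3 standard catalytic subunits, with Fcmr-/- cells above the diagonal and Fcmr+/+ cells below it. Values among Psmb8, Psmb9, Psmb10, Psme1 and Psme2 reach 0.33 above the diagonal and 0.13 below it, and the rows and columns of Psmb5, Psmb6 and Psmb7 are pale on both sides of the diagonal.

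The 10 genes were next described along a type II interferon score, the summed UMIs per 5000 of 25 genes such as Gbp2, Cxcl9 and Iigp1, cut into 5 bins at the quintiles of all cells. In both libraries, levels were higher in the top bin (7 to 164 UMIs) than in the bottom bin (0 UMIs) for 9 of the 10 genes. The ratio of top to bottom bin was larger in Fcmr-/- cells, with 1.60-fold in Fcmr+/+ and 2.62-fold in Fcmr-/- cells for Psmb8, 1.92-fold and 3.59-fold for Psmb9, and 2.68-fold and 4.51-fold for Tap1. Erap1 was the exception, with 0.745-fold in Fcmr+/+ and 1.68-fold in Fcmr-/- cells. The standard subunits also had the larger ratio in Fcmr-/- cells, but Psmb5 and Psmb6 were lower in the top bin in both libraries. Their ratios in Fcmr+/+ and Fcmr-/- cells were 0.774-fold and 0.958-fold for Psmb5 and 0.808-fold and 0.896-fold for Psmb6. Psmb7 had 0.992-fold and 1.05-fold. The share of all genes with a higher level in the top bin, or with the larger ratio in Fcmr-/- cells, was not computed.

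The genotypes were also compared within each bin. The median log2 ratio was 0.16, 0.14, 0.45, 0.53 and 0.90 from the bottom to the top bin, and the number of genes that were higher was 8 in the bottom bin and 10 in each of the others, where the shares of all genes were 52.5%, 48%, 49.2%, 51.3% and 58.4%. Counting intervals overlapped for 7 of the 10 genes in the bottom bin and for 8 in the next, but for 2, 2 and 0 in the bins above. The share of all genes with overlapping intervals was not computed. Overlap also depends on the number of UMIs, and the bins differed in size. The bottom bin held 1786 Fcmr+/+ and 1095 Fcmr-/- cells, and the top bin 489 and 2334. In the 2 lowest bins the standard subunit Psmb5 differed by as much as the 10 genes did, with log2 ratios of 0.16 and 0.18, and it was higher with intervals apart in all 5 bins, up to 0.47 in the top bin. Psmb6 had 0.15 in the second-lowest and 0.22 in the top bin, and Psmb7 had overlapping intervals in all 5. Tap1 had 47.1 CPM (42.7 to 51.9) in Fcmr+/+ and 40.2 CPM in Fcmr-/- cells of the bottom bin, the only bin in which it was not the higher, and 126.4 CPM (112.7 to 141.3) and 181.1 CPM (173.5 to 189.0) in the top bin. Psmb8 had 213.8 and 239.5 CPM in the bottom bin and 341.5 CPM (318.7 to 365.5) and 627.1 CPM (612.8 to 641.6) in the top bin. The mean score of the top bin was 16.9 UMIs in Fcmr+/+ and 17.9 UMIs in Fcmr-/- cells, but it was made of different genes, since Cxcl10 supplied 54.3% of it in Fcmr+/+ and 25.6% in Fcmr-/- cells. The top bin also drew on different clusters, with 6.75% of its Fcmr+/+ and 53.8% of its Fcmr-/- cells from cluster 1. Type I interferon-high-like cluster 9 supplied 28.8% of its Fcmr+/+ and 19.8% of its Fcmr-/- cells. The score genes summed to 1885 and 2222 CPM in cluster 1, less than the 3179 and 3227 CPM of cluster 9. A high score therefore did not mark a type II interferon state alone. With Cxcl10 left out of the score, a choice made after these values were seen, the medians were 0.16, 0.20, 0.35, 0.60 and 0.65. Bin limits are narrow at low scores, and 78.8% of cells had a score next to a limit, so the bins are ranges and not cell types. Along a type I interferon score the medians were 0.23, 0.41, 0.50, 0.67 and 0.79.

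**Figure D5:**
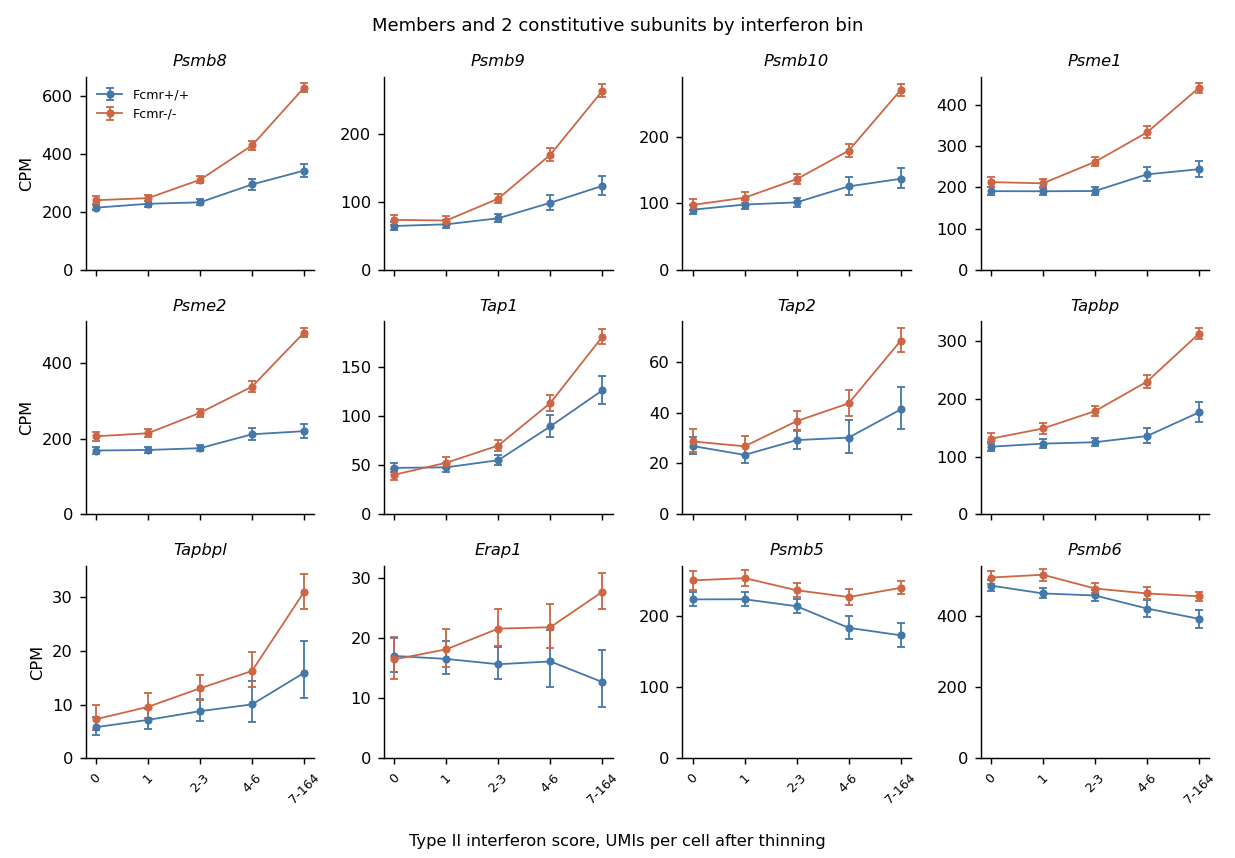
CPM of the 10 genes, Psmb5 and Psmb6 in 5 bins of the type II interferon score (summed UMIs of the score genes per cell after thinning), for Fcmr+/+ (blue) and Fcmr-/- cells (orange), with bars for exact 95% Poisson intervals. The lines lie close together at a score of 0 and part towards the top bin, where Psmb8 has 341.5 and 627.1 CPM. Psmb5 and Psmb6 do not climb, but their lines are also further apart in the top than in the bottom bin. There Psmb5 has 173.0 and 239.8 CPM, a log2 ratio of 0.47 against 0.16 in the bottom bin.

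To find the genes most like the set, log2 levels over 19 groups of cells (clusters by library with enough cells) were correlated with the mean of the 10 genes for 5179 genes. The groups share libraries and are a description only. They were split by genotype, and 53 interferon score genes were among the variable genes that shaped the clusters. Genes that shape the clusters or differ between the genotypes are therefore favored in advance. Gbp7 had the highest r, at 0.96, followed by Nmi, Igtp, Gbp2 and Iigp1 (each 0.93), and AW112010, Magohb and Ifi47 had 0.91 each. Of these genes, Gbp7, Igtp, Gbp2, Iigp1 and Ifi47 belong to the type II interferon score. Psmb8 lay closest to the mean of the set (0.99) and Erap1 farthest from it (0.60). For each of the 10 genes that mean includes the gene itself, which raises its r in part, unlike for other genes. Nlrc5 had an r of 0.94 and Irf1 of 0.68, while Psmb5, Psmb7 and Psmb6 had 0.07, 0.02 and -0.53.

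Transcripts of other cell types were present at low levels and were in part higher in Fcmr-/- TMPs. The summed T and NK cell markers, 11 of 13 listed genes being found, had 4.52 CPM (4.16 to 4.91) in Fcmr+/+ and 20.5 CPM (19.7 to 21.3) in Fcmr-/- TMPs. Ifng had 1 and 41 UMIs, and Gzma and Ncr1 had 0 UMIs in Fcmr+/+ TMPs. Most of the 581 Fcmr+/+ UMIs came from Cd4 (255) and Klrd1 (204), which had 191 and 382 of 2556 in Fcmr-/- TMPs. Only Cd4 had fewer UMIs in Fcmr-/- TMPs. Gzmb had 10 and 619 UMIs, Nkg7 32 and 504, and Cd3g 28 and 319. Dendritic cell markers had 8.25 and 13.6 CPM, melanoma markers 40.6 and 64.1 CPM, neutrophil markers 31.2 and 47.6 CPM and B cell markers 12.4 and 10.4 CPM. Cells with at least 2 T and NK cell UMIs made up 1.28% and 1.51% of the libraries, and which of the markers they held was not examined. Without them the median log2 ratio of the 10 genes was again 0.82. It was 0.82 without cells holding 3 or more dendritic cell UMIs and 0.80 without those holding 3 or more melanoma UMIs.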

How the data were processed

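For each of the 2 libraries the authors deposited a matrix of UMI counts of called cells, not normalized, which Cell Ranger had made against GRCm38, and they used Seurat 2.1.0 downstream. Following their filters, a cell was kept if it had 200 to 7000 genes and at most 30% mitochondrial UMIs, and a gene entered clustering if found in 3 or more kept cells. The limit of 7000 genes was the only treatment of doublets. Clustering used Seurat 5.3.0 in R 4.3.3 (log-normalization to 10000, 1336 variable genes of which 3 were members and left out, 10 principal components, resolution 0.8). Sums, intervals, thinning and figures used Python 3.11.15, numpy 2.4.6, scipy 1.17.1, pandas 2.3.3 and matplotlib 3.10.9. Log2 ratios compare CPM + 1. Clusters with at least 100 cells of each library were compared. Coordinates are from GENCODE and promoters from RefSeq (GRCm38.p6). The sums and intervals were tested on simulated data. The members and lists were chosen with earlier results of these data known. Named genes were the members, all genes of fixed pathway and marker lists, each cluster's 3 leading genes (at least 50 CPM) and the 10 genes most correlated with the members (at least 20 CPM). Psme2b was named after its values were seen. A few genes that the rule names are not reported here. Alternatives covered scaling, pseudocount, filters, depth, other cell types, clustering, correlation and score.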

Additional observations from a re-analysis of the deposited data

How the results depend on the processing

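With 1 library per genotype no replicate could be left out, and mouse, sort and library preparation cannot be told apart from genotype. The median log2 ratio of the 10 genes was 0.75 as a mean of per-cell CPM, 0.75 after thinning to 5000 UMIs and, as alternatives chosen after the data were seen, 0.51 with 3 of 10 genes past 1.5-fold without cluster 1. The difference in the inducible share of catalytic UMIs was 11.8 percentage points as a mean over cells, 11.7 after thinning, 12.99 in cells with at most 5000 genes and 13.2 without cells holding melanoma UMIs. The other alternatives moved the median only between 0.80 and 0.83 and left 9 of 10 genes past 1.5-fold. The median over the 10 genes was above 0 in every compared cluster under all 12 alternatives, in 6 of 6 clusters at resolution 0.4 and 12 of 12 at the most. Between 42 and 45 pairs of genes had the larger correlation in Fcmr-/- cells under 10 alternatives, and the median over the 10 genes was above 0 in every score bin under 11.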
